A study of Mus musculus with 10 samples.

Results

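The late-numbered mature miRNAs of the mouse heart, those whose names carry a number of at least 1900, were examined at 5 stages of cardiac development and growth. Of 1006 listed names in this number range, leaving out miR-3072, 217 (21.6%) reached at least 10 counts in at least 1 of the 5 libraries and form the group described here. Of the other 789 names, 412 had no count in any library and 377 had a highest count between 1 and 9. The 217 members made up 27.1% of the 800 mature miRNAs that passed the same minimum, out of 1908 listed. The choice used the name and this minimum, and was made with earlier results of these data known. A minimum met in any 1 library still bears on the course over development, as 44 members reached it at E10.5 only.

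Hearts came from C57BL/6 embryos of day 10.5 (E10.5), day 14.5 (E14.5) and day 17.5 (E17.5), from neonatal mice and from adult mice. All groups were of this strain, and the labels name no treatment or altered allele. Each stage was measured with 1 small RNA library and 1 long RNA library, 10 in all, and the study's title concerns the maturation of cardiomyocytes. The small RNA libraries are used here. The labels give heart tissue as the source and cardiomyocyte as the cell type, and they do not say how many animals entered a library or how old the adult mice were. With 1 library per stage no difference has a replicate check, and no p-value is given.

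A mature miRNA is a short RNA cut from a hairpin precursor, and its bases 2 to 8, the seed, pair with target messages that are then repressed. miRNAs are numbered in the order of their description, so the high numbers mostly went to miRNAs found by deep sequencing, many of them in introns of protein-coding genes. Some are mirtrons, in which splicing of a short intron, and not the nuclear enzyme Drosha, releases the hairpin. For most of the members no role in the heart is established.

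The libraries held between 10479309 counts (E10.5) and 12953867 counts (adult). Levels are given as counts per 1000000 (CPM), in which 10 counts equal 0.772 CPM in the adult library and 0.954 CPM in the E10.5 library, and a count of 0 allows up to 3 counts, or 0.232 CPM in the adult library and 0.286 CPM in the E10.5 library. The cardiomyocyte miRNAs (miR-1a-3p, miR-133a-3p, miR-208a-3p, miR-208b-3p and miR-499-5p) were present at every stage, summing to 51949, 52839, 70709, 102733 and 242063 CPM from E10.5 to the adult. Most of the sum was miR-1a-3p, while miR-208b-3p, known from the fetal heart, was at 704, 939, 1098, 831 and 24.3 CPM. Markers of other cells were present too, and in such tissue libraries fewer cells of a type and less RNA per cell cannot be told apart. The neonatal library stood apart in the neural pair miR-9-5p and miR-124-3p, with 13037 CPM against 405 to 837 CPM in the other 4 libraries. The epithelial pair miR-200b-3p and miR-205-5p was at 858, 1042, 500.0, 32.6 and 7.49 CPM from E10.5 to the adult, with miR-205-5p at 0 counts in the adult, and the liver miRNA miR-122-5p was at 894, 118, 619, 105 and 33.3 CPM. The fibroblast and smooth muscle miRNAs miR-199a-3p, miR-143-3p and miR-145a-5p summed to 127527, 109975, 111068, 96535 and 67431 CPM, the endothelial miR-126a-3p was at 20957, 20571, 21486, 25826 and 36951 CPM, and the lymphocyte miR-150-5p at 101 CPM in the adult, against 9.73 to 12.8 CPM in the other 4 libraries. The part of these cells in the values below was not tested.

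The sequences of the members that carry the results are given here, from RefSeq (GRCm38.p6), 5′ to 3′ with the seed in capitals. RefSeq entries were found for 183 of the 217 members, and miR-3107-5p, miR-5099, miR-6540-5p and miR-3970 are among those given by name only. The first set holds members with a lower level in the adult than at E10.5.
miR-3099-3p: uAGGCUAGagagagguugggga
miR-1983: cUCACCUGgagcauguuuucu
miR-5128: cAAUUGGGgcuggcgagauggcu
miR-3081-3p: uUGCGCUCcgaucucugagcugg
miR-6945-3p: uCUGAGCUcugcccuucccau
miR-1981-5p: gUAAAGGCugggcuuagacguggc
miR-7070-5p: gUGAGGGGagcugaggcagga

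miR-3099-3p lies at chr7:6803638-6803659 on the plus strand, inside Usp29. miR-1983 lies at chr13:21896930-21896950 on the minus strand, in no listed gene. miR-5128 is at chr2:37688212-37688234 on the minus strand within Strbp, miR-6945-3p at chr13:55507627-55507647 on the minus strand within Pdlim7, miR-1981-5p at chr1:184822465-184822488 on the minus strand within Mtarc2, and miR-7070-5p at chr8:85062086-85062106 on the plus strand within Fbxw9. All of these host genes are read from the same strand as the miRNA. miR-3081-3p lies at chr16:44558058-44558080 on the minus strand inside Boc, whose strand is not given in the tables used. Those tables give gene intervals without exons, so exonic and intronic positions are not separated. Genes whose names begin with Mir or Gm and a number, begin with Mirlet, or end in Rik were left out, here and below.

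The next set holds members that kept a near-level share of the library (miR-3068-5p, miR-1943-5p), that were higher in the adult (miR-3100-5p, miR-7213-5p), or that were lower at E17.5 than in the libraries before and after it (miR-3968, miR-3963).
miR-3068-5p: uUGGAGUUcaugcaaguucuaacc
miR-1943-5p: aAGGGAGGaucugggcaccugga
miR-3100-5p: uUGGGAACggggugucuuuggga
miR-7213-5p: aCUGGGUCucuugagguagc
miR-3968: cGAAUCCCacuccagacacca
miR-3963: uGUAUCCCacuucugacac

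miR-3068-5p lies at chr12:87437724-87437747 on the minus strand within Alkbh1, and miR-1943-5p at chr15:79375271-79375293 on the minus strand within Tmem184b. miR-3100-5p lies at chr7:19086828-19086850 on the plus strand within Dmpk, the kinase gene of myotonic dystrophy, and miR-7213-5p at chr15:79999007-79999026 on the minus strand inside Pdgfb, whose strand is not given in the tables used. miR-3968 lies at chr11:115447969-115447989 on the minus strand, opposite Trim80, and miR-3963 at chr3:151023839-151023857 on the minus strand in no listed gene.

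The members were mostly scarce, and a single one held most of their counts. The highest level of a member at any stage had a median of 2.19 CPM, against 45.5 CPM for the 583 other measured miRNAs. Of the members 19 (8.76%) never reached 1 CPM, 162 (74.7%) peaked between 1 and 10 CPM, 28 (12.9%) between 10 and 100 CPM, and 8 (3.69%) at 100 CPM or more. Among the other measured miRNAs 244 (41.9%) peaked at 100 CPM or more. Only 12 of the 217 members had at least 100 counts in every library, and 56 had at least 10 in every library.

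All members together made up 0.929% of the E10.5 library (Wilson 95% interval 0.923 to 0.934), 0.561% at E14.5 (0.557 to 0.566), 0.636% at E17.5 (0.632 to 0.641), 0.510% in the neonatal heart (0.506 to 0.514) and 1.04% in the adult heart (1.04 to 1.05). These and all later intervals cover counting error only. miR-3107-5p alone held 46.8% of the members' counts at E10.5 (Wilson 95% interval 46.5 to 47.1), 54.2% at E14.5 (53.8 to 54.6), 70.5% at E17.5 (70.2 to 70.9), 70.2% in the neonatal heart (69.8 to 70.5) and 94.5% in the adult heart (94.4 to 94.6). Without it, the summed level of the 216 others was 4942, 2570.4, 1874, 1520.1 and 573 CPM from E10.5 to the adult. Thus the sum of all members was highest in the adult, while the sum without miR-3107-5p was lower at each later stage. Without the 5 members of highest total count, the sum was 1741, 1012, 753, 687 and 353 CPM, in the same order. Scaled by the median ratio over miRNAs counted in all 5 libraries, the sum without miR-3107-5p was 2393, 2026, 1750.5, 1663 and 1444, and without the 5 members of highest total count it was 843, 798, 703, 752 and 889, highest in the adult. The size of the first decline and the direction of the second thus rest on the scaling.

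**Figure D1:**
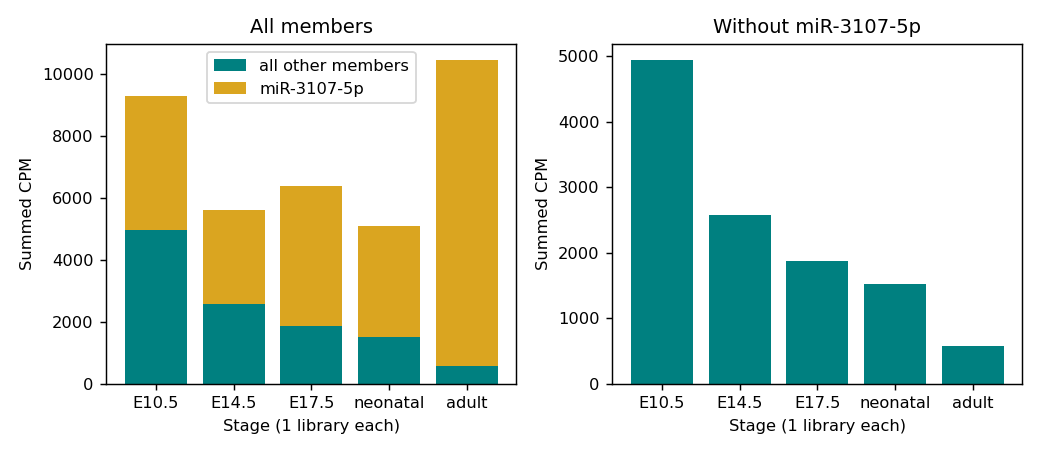
Summed level of the late-numbered miRNAs in CPM at the 5 stages, 1 library each. Stacked bars at the left show miR-3107-5p and the other members, and bars at the right the other members alone. The sum of all members is highest in the adult at 10430.1 CPM, while the sum without miR-3107-5p is highest at E10.5 (4942 CPM) and lowest in the adult (573 CPM).

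miR-3107-5p was the most abundant member at every stage, with 4344, 3044, 4488, 3579 and 9857 CPM from E10.5 to the adult (45525, 35091, 57667, 45568 and 127692 counts). The adult level stood above all 4 others. It was 2.27-fold that of E10.5 (exact 95% interval 2.24 to 2.29) and 2.75-fold that of the neonatal heart (2.73 to 2.78). miR-3107-3p, the other arm of the hairpin, had 38.6, 20.2, 27.8, 22.9 and 92.9 CPM over the 5 stages. Its adult level was 2.41-fold that of E10.5 (2.15 to 2.71) and 4.07-fold that of the neonatal heart (3.58 to 4.64).

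The mouse miR-3107 hairpin is also known as miR-486b, a near-identical partner of miR-486, a miRNA of muscle and red blood cells. Listed separately, miR-486-5p had 3892, 2754, 4016, 3179.7 and 8967 CPM. The level of miR-3107-5p over that of miR-486-5p was 1.12, 1.11, 1.12, 1.13 and 1.10 from E10.5 to the adult. How the authors assigned reads that match both names is, for this table, not given in the sources used here, and the level of miR-3107-5p apart from that of miR-486-5p is uncertain. The 3p arms were less alike, with 49.1, 38.8, 37.6, 34.2 and 41.1 counts of miR-3107-3p for each 1000 of miR-486-3p. The erythroid pair miR-451a and miR-144-3p summed to 218, 152, 156, 103 and 339 CPM, and its part in the adult value was not tested.

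**Figure D2:**
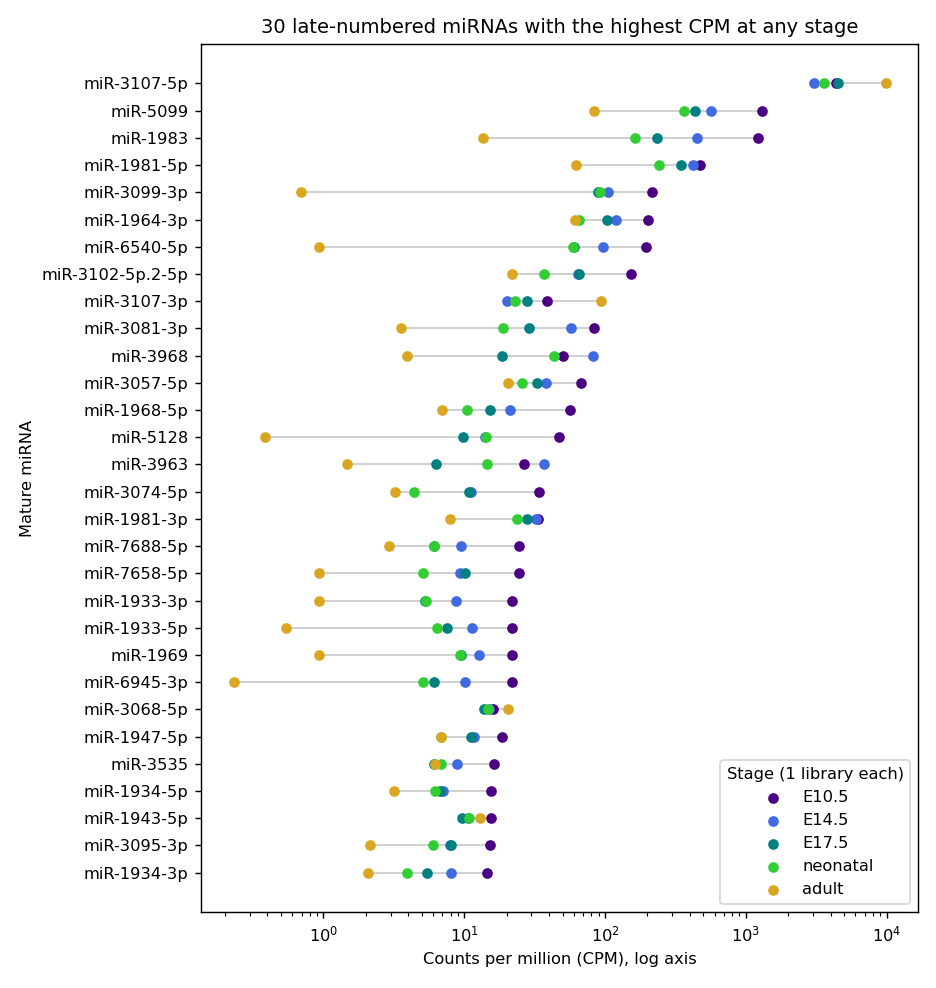
Level in CPM, on a log axis, of the 30 members with the highest level at any stage, 1 point for each of the 5 libraries. miR-3107-5p is highest in the adult at 9857 CPM, and miR-3099-3p and miR-6540-5p have the widest span, with adult levels of 0.695 and 0.926 CPM.

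The other 7 members peaking at 100 CPM or more were lower in adult hearts than at E10.5, by between 3.28-fold and 310.0-fold. miR-3099-3p, a miRNA known from the early embryo and from neural progenitors, had 215, 105, 89.2, 92.2 and 0.695 CPM from E10.5 to the adult (2257, 1205, 1146, 1174 and 9 counts). All 4 prenatal and neonatal libraries were far above the adult. The adult value was 310.0-fold lower than that of E10.5 (exact 95% interval 163 to 679) and 133-fold lower than the neonatal value (69.7 to 291). This difference, -7.00 on the log2(CPM + 1) scale, was the largest of any member in either direction.

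miR-6540-5p followed a similar course, with 194, 96.6, 59.8, 59.6 and 0.926 CPM from E10.5 to the adult (2036, 1113, 768, 759 and 12 counts). The adult value was 209.7-fold lower than that of E10.5 (119.8 to 407) and 64.3-fold lower than the neonatal value (36.6 to 125). For both of these members the neonatal level was close to that of E17.5, and the wide gap lay between the neonatal and adult libraries. The neonatal library is the one with high neural markers, and their part in these values was not tested.

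miR-1983 was lower at every step, and its neonatal level was not as close to that of E17.5. It had 1223, 447, 233, 162 and 13.5 CPM over the 5 stages (12818, 5156, 2988, 2065 and 175 counts). The adult value was 90.5-fold lower than that of E10.5 (78.0 to 106). miR-5099 had 1303, 569, 437, 364 and 83.0 CPM, and the adult value was 15.7-fold lower than that of E10.5 (14.7 to 16.7). At E10.5 miR-5099 and miR-1983 had the highest levels after miR-3107-5p.

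miR-1981-5p, from the Mtarc2 locus, had 473, 423, 349, 242 and 61.9 CPM from E10.5 to the adult. Its decline was shallow before birth and the adult value was 7.65-fold lower than that of E10.5 (7.10 to 8.25). miR-3102-5p.2-5p had 154, 64.5, 65.3, 36.8 and 21.8 CPM. miR-1964-3p, from the Zfp84 locus, had 202, 119, 103, 65.6 and 61.6 CPM, 3.28-fold lower in adult hearts than at E10.5; scaled by the median ratio instead of the library total, its adult value was higher by 0.66 on the log2 scale.

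Among members of intermediate level, miR-3081-3p had 83.8, 57.1, 29.0, 18.8 and 3.55 CPM, 23.6-fold lower in adult hearts than at E10.5 (17.5 to 32.5). miR-5128 had 46.8, 14.0, 9.88, 14.3 and 0.386 CPM (490, 161, 127, 182 and 5 counts). Its largest steps were between E10.5 and E14.5 and between the neonatal and adult hearts, with the adult 121-fold lower than E10.5 (51.6 to 375). miR-6945-3p, within Pdlim7, a gene of the actin cytoskeleton, had 21.7, 10.2, 6.15, 5.10 and 0.232 CPM; with 3 counts in adult hearts against 227 at E10.5, the level was 93.5-fold lower (31.6 to 457). miR-7070-5p had 9.54, 1.65, 1.56, 0.707 and 0 CPM, and with 0 counts in adult hearts against 100 at E10.5 it was at least 41.2-fold lower, taking 3 counts as the floor of the adult library. Unlike the others it was already 5.79-fold lower at E14.5 than at E10.5 (3.52 to 10.0).

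Both arms of miR-1933, from Ugp2, and several members with peaks between 10 and 25 CPM had less than 1 CPM in the adult. miR-1933-5p had 22.0, 11.3, 7.55, 6.36 and 0.540 CPM, and miR-1933-3p had 22.0, 8.68, 5.29, 5.34 and 0.926 CPM. miR-7658-5p, within Klhl17, had 24.4, 9.28, 10.1, 5.10 and 0.926 CPM, and miR-1969 had 21.8, 12.7, 9.50, 9.35 and 0.926 CPM. miR-3079-5p had 10.7, 6.94, 4.90, 3.30 and 0.695 CPM. In each of these the neonatal level was still above 3 CPM.

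Other named members had smaller declines. miR-1968-5p, within Grtp1, had 56.3, 21.1, 15.2, 10.4 and 6.95 CPM. miR-7688-5p had 24.6, 9.46, 6.07, 6.13 and 2.93 CPM, and miR-3066-5p, within Nol10, had 11.9, 3.64, 2.88, 3.53 and 1.78 CPM. In these 3 the largest step was between E10.5 and E14.5, and not at the adult. miR-3095-3p, within Lpar1, had 15.2, 7.89, 8.09, 5.97 and 2.16 CPM, and miR-1934-3p had 14.6, 8.07, 5.45, 3.93 and 2.08 CPM. Under median-ratio scaling the adult differences from E10.5 of miR-1968-5p (-0.61), miR-7688-5p (-0.62), miR-3066-5p (-0.31), miR-3095-3p (-0.37) and miR-1934-3p (-0.37) were below 0 but under 2-fold, as were those of miR-1981-5p (-0.55) and miR-3102-5p.2-5p (-0.43).

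For 6 further named members the direction of the adult difference rests on the scaling. In CPM the log2 differences, adult minus E10.5, were -1.99 for miR-1934-5p, -1.34 for miR-1947-5p, -1.95 for miR-1981-3p, -1.67 for miR-3057-5p, -1.71 for miR-3064-5p and -1.26 for miR-3535. Under median-ratio scaling the same differences were 0.07, 0.85, 0.28, 0.65, 0.32 and 0.91, all above 0. miR-3057-5p, the most abundant of them, had 67.4, 37.8, 33.0, 25.8 and 20.5 CPM. miR-3064-5p, within Ddx5, a gene of an RNA helicase, had 12.1, 10.8, 12.5, 11.5 and 3.01 CPM. miR-1981-3p had 33.4, 32.2, 27.7, 23.6 and 7.87 CPM. miR-1947-5p, within Lmln, had 18.7, 11.7, 11.2, 6.83 and 6.79 CPM, and miR-1934-5p had 15.6, 7.03, 6.69, 6.20 and 3.17 CPM. miR-3535, within Ncl, the nucleolin gene, had 16.4, 8.94, 6.15, 6.83 and 6.25 CPM.

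Counted over the whole group, most members were lower in adult hearts than at E10.5, as were most miRNAs of the library. Members with a minimum of 10 counts in either stage were compared, and a member was called where its log2(CPM + 1) difference was at least 1 in size, a 2-fold rule of size and not a test. The adult and E10.5 could be compared for 199 members, of which 138 (69.3%) were called lower and 7 (3.52%) higher. Over all 765 measured miRNAs compared, 68.2% were called lower and 7.97% higher, so the share of members that were lower was near that of all miRNAs. The median difference of the members was -1.30 (quartiles -1.84 and -0.92), against -1.59 for all miRNAs compared. Of the 138, 39 had no count in the adult. Since 44 members passed 10 counts at E10.5 only, those could differ only downward from it, and the count is no evidence of a course shared by the members.

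These counts depend on the scaling. Scaled by the median ratio over 750 miRNAs counted in all 5 libraries, the median over all miRNAs compared was -0.40 in place of -1.59, and that of the members -0.42 in place of -1.30. On that scale 36 members (18.1%) were 2-fold lower and 25 (12.6%) were 2-fold higher in the adult than at E10.5. Over all miRNAs 33.1% were lower and 25.0% higher. Of the 138 members called lower in CPM, 121 were still below 0 and 17 were above 0. miR-3099-3p (-5.26), miR-6540-5p (-4.83), miR-1983 (-4.08), miR-5128 (-3.58), miR-6945-3p (-2.86), miR-7070-5p (-2.49), miR-1933-5p (-2.30) and miR-3081-3p (-2.06) were more than 2 log2 units lower in the adult on that scale as well.

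**Figure D3:**
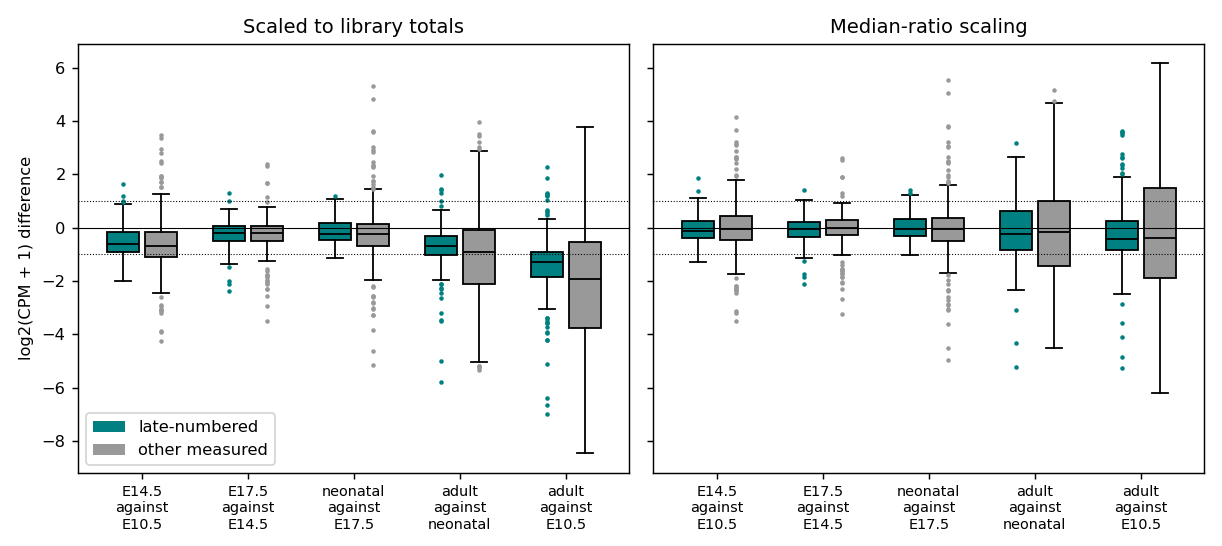
Log2(CPM + 1) differences of the members and of the other measured miRNAs in the 5 stage comparisons, the later stage minus the earlier, scaled to library totals (left) and by the median ratio (right). Boxes span the quartiles with the median, whiskers reach 1.5 box lengths, points lie beyond, and dotted lines mark 2-fold. In the left panel the members' medians lie at -0.62, -0.20, -0.22, -0.70 and -1.30, and the lowest member value, -7.00, is miR-3099-3p in the adult against E10.5.

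The adult against E10.5 was also set by level, in CPM. The share called lower was higher among members than among other miRNAs in each class from 1 CPM up. Under median-ratio scaling this was so in the top class alone. In CPM it was also so in the top class alone at E14.5 against E10.5 and in the adult against the neonatal heart. Between 1 and 10 CPM those shares were 19.0% of members and 29.0% of others, and 16.0% and 29.1%. At the steps between, the members' share was the lower in each class from 1 CPM up. In the adult against E10.5, miRNAs peaking under 1 CPM could not be called lower on either scale. Their E10.5 level lies below the 1 CPM added before the log2, so this was fixed in advance. Under median-ratio scaling 4 of 10 others and no member in that class were called higher. Among miRNAs peaking between 1 and 10 CPM, 108 of 153 members (70.6%) were called lower in adult hearts than at E10.5, and 108 of 160 others (67.5%). Between 10 and 100 CPM the counts were 23 of 28 members (82.1%) and 116 of 152 others (76.3%). At 100 CPM and above they were 7 of 8 members (87.5%) and 160 of 244 others (65.6%). Under median-ratio scaling the shares called lower were 14.4% of members and 26.9% of others between 1 and 10 CPM, 35.7% and 47.4% between 10 and 100 CPM, and 50.0% and 41.8% at 100 CPM and above. These are counts of single libraries, and the top class holds 8 members.

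Between adjacent stages, the members' median differences in CPM were lower at the first and last steps (-0.62 and -0.70) than at the steps between (-0.20 and -0.22). Under median-ratio scaling the medians were -0.11, -0.04, -0.04 and -0.22 in the order of the stages. At E14.5 against E10.5, 44 of 206 members (21.4%) were called lower and 2 higher, against 27.9% and 2.88% of all miRNAs. The 2 that were higher were miR-3970 and miR-5107-5p, and this and the next short lists are named after their values were seen. At E17.5 against E14.5, 7 of 164 members were lower and 2 higher, against 5.60% and 1.03% of all miRNAs. Higher were miR-3100-5p (1.32) and miR-6976-5p (1.00), as log2 differences. In the neonatal heart against E17.5, 3 of 152 members were lower and 3 higher, against 9.51% and 5.05%. Lower were miR-3074-5p (-1.14), miR-6976-5p (-1.13) and miR-3086-5p (-1.10), and higher were miR-3968 (1.20), miR-3963 (1.08) and miR-6516-5p (1.05). In the adult against the neonatal heart, 31 of 122 members (25.4%) were lower and 4 higher, against 43.2% and 6.76%. Under median-ratio scaling, E14.5 against E10.5 gave 5 members higher (2.43%) and 3 lower (1.46%), against 7.47% and 5.11% of all miRNAs. At E17.5 against E14.5, 2 were higher (1.22%) and 5 lower (3.05%), against 1.18% and 3.24%. In the neonatal heart against E17.5, 5 were higher (3.29%) and 2 lower (1.32%), against 5.94% and 6.24%. In the adult against the neonatal heart, 20 were higher (16.4%) and 19 lower (15.6%), against 23.7% and 29.2%. In CPM and with the E17.5 library in the place of the neonatal library, whose neural markers stood apart, 52 of 136 members were lower in the adult and 4 higher, against 50.8% and 7.10% of all miRNAs.

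Most members had their highest CPM at E10.5. This was so for 160 of 217 members (73.7%), with 26, 12, 9 and 10 members highest at the later stages in turn. For 44 of the 160 the minimum of 10 counts was reached at E10.5 only, so that the choice of members bears on this number. Of the 583 other measured miRNAs 378 (64.8%) were highest at E10.5 and 92 (15.8%) in the adult. Scaled by the median ratio, 79 members (36.4%) were highest at E10.5 and 47 (21.7%) in the adult, against 34.5% and 36.0% of the others. A level lower at each of the 4 steps was seen for 51 members (23.5%) and for 230 others (39.5%); under the median-ratio scaling these numbers were 11 and 94. In the adult 48 members (22.1%) had no count, against 2 at E10.5, and 55 of the others (9.43%) had none in the adult. The members were scarcer, with a median highest level of 2.19 CPM against 45.5 CPM for the others. The part of this in the zeros was not tested.

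miR-3068-5p and miR-1943-5p kept a near-level share of the library through all stages. miR-3068-5p, from the Alkbh1 locus, had 16.0, 14.9, 13.9, 14.8 and 20.6 CPM from E10.5 to the adult. The adult value was 1.29-fold that of E10.5 (exact 95% interval 1.06 to 1.57). miR-1943-5p had 15.4, 10.6, 9.65, 10.9 and 13.0 CPM, with an adult to E10.5 ratio of 0.849 (0.680 to 1.06). miR-8103, within Osbpl7, had 14.4, 12.3, 13.3, 8.80 and 7.87 CPM. It was lower in the neonatal and adult libraries, with an adult difference from E10.5 of -0.80 that stayed under the 2-fold rule. Median-ratio scaling weights the adult library up. On that scale the adult differences from E10.5 were 2.60 for miR-3068-5p, 2.01 for miR-1943-5p and 1.39 for miR-8103. Thus miR-3068-5p and miR-1943-5p count as near level only in CPM, and the direction for miR-8103 rests on the scaling.

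In the adult against E10.5, 7 members were called higher, both arms of miR-3107 among them; the other 5 had low counts, and 4 of them (miR-7213-5p, miR-3100-5p, miR-5107-5p and miR-6899-3p) are named because the count is short, after their values were seen. miR-3970 had 1.43, 6.59, 7.55, 9.90 and 7.95 CPM from E10.5 to the adult (15, 76, 97, 126 and 103 counts). Its level was low at E10.5 alone, and E14.5 was 4.61-fold E10.5 (2.62 to 8.63), while the adult was 5.55-fold E10.5 (3.22 to 10.3).

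miR-7213-5p had 0.0954, 1.13, 0.934, 1.65 and 4.25 CPM over the 5 stages. With 55 counts in adult hearts against a single count at E10.5, the ratio was 44.5 with an interval of 7.66 to 1789. miR-3100-5p, of the Dmpk locus, had 0.859, 0.954, 3.89, 2.51 and 3.40 CPM, low in the first 2 libraries and higher in the later 3. Its adult to E10.5 ratio was 3.95 (1.91 to 9.21). miR-6899-3p, within Klf7, had 6, 20, 23, 14 and 29 counts and a ratio of 3.91 (1.60 to 11.5). miR-5107-5p had 0, 15, 3, 0 and 19 counts, which follow no order of stages, and against the floor of 3 counts at E10.5 the adult was at least 5.12-fold higher.

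In the adult against the neonatal heart the 4 higher members were both arms of miR-3107, miR-5107-5p and miR-5709-5p. miR-5709-5p, within Ptprm, had 38, 23, 31, 23 and 83 counts, a log2 difference of 1.40. miR-6516-5p, from Snhg20, a host gene of small nucleolar RNA, had 19, 32, 24, 63 and 44 counts and was called higher in the neonatal heart against E17.5 (1.05).

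**Figure D4:**
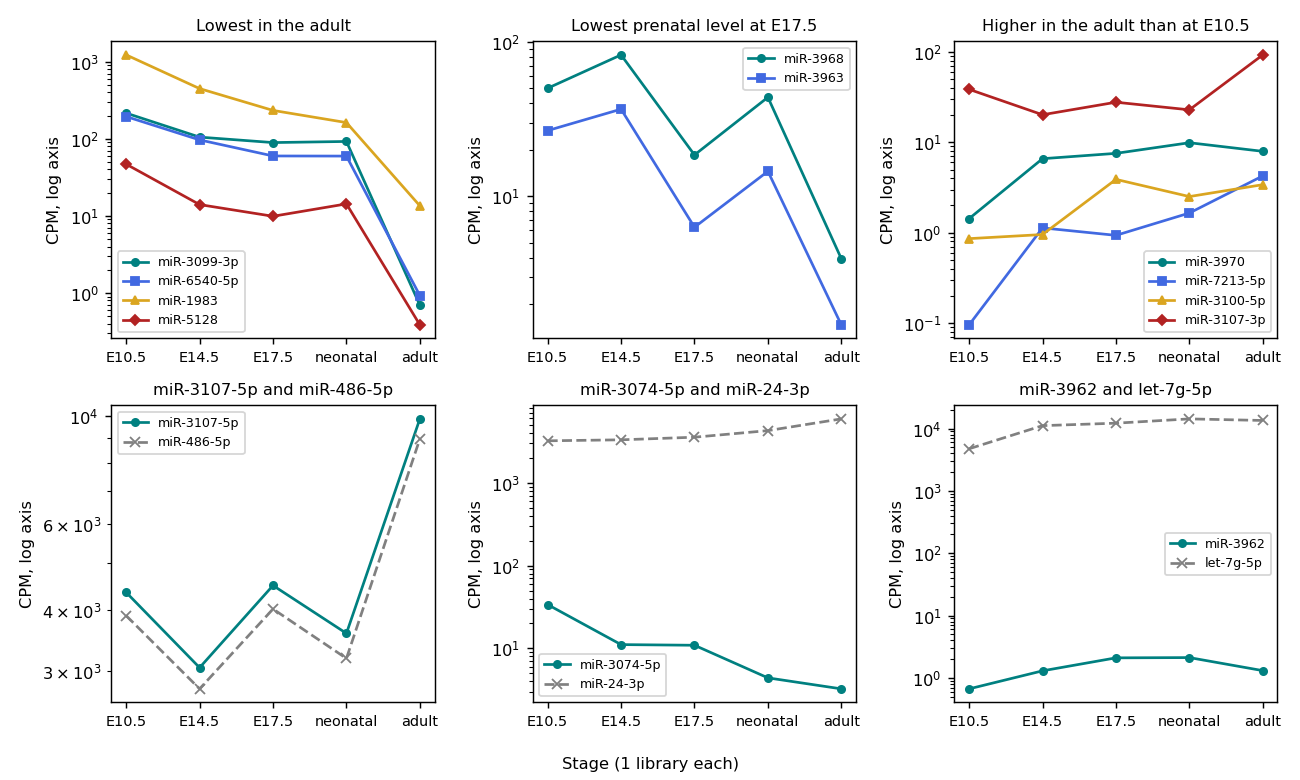
Levels at the 5 stages in CPM on log axes, 1 library per stage, for members in 3 patterns (upper panels) and for 3 members beside the miRNA they resemble, drawn as a dashed line (lower panels). The adult points of miR-3099-3p (0.695 CPM) and miR-6540-5p (0.926 CPM) lie far below the other 4 stages, and miR-3968 and miR-3963 are lower at E17.5 (18.5 and 6.30 CPM) than at E14.5 and in the neonatal heart.

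miR-3968 and miR-3963 had an uneven course. miR-3968 had 50.0, 82.2, 18.5, 43.7 and 3.94 CPM from E10.5 to the adult (524, 948, 238, 557 and 51 counts). miR-3963 had 26.6, 36.6, 6.30, 14.5 and 1.47 CPM (279, 422, 81, 184 and 19 counts). Both were highest at E14.5, low at E17.5, higher again in the neonatal heart and lowest in the adult.

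At E17.5 the level was 0.225-fold that of E14.5 for miR-3968 (exact 95% interval 0.195 to 0.260) and 0.172-fold for miR-3963 (0.134 to 0.219). The neonatal level was 2.36-fold (2.03 to 2.76) and 2.29-fold (1.76 to 3.02) that of E17.5. Of all measured miRNAs, 4 were 2-fold lower at E17.5 than at E14.5 and 2-fold higher in the neonatal heart than at E17.5, these members and miR-128-2-5p and miR-344-3p. The sequences of the 2 members share a run of 8 bases, in capitals here and not the seed, which their mature forms hold at the same positions.
miR-3968: cgaAUCCCACUccagacacca
miR-3963: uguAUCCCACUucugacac

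Several other members resemble another miRNA in sequence, and their counts are less certain for it. miR-3962 and let-7g-5p, a member of the let-7 family that is known to accumulate as tissues mature, share a run of 17 bases, in capitals.
miR-3962: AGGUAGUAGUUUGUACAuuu
let-7g-5p: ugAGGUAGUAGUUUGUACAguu

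miR-3962 had 7, 15, 27, 27 and 17 counts over the 5 stages, while let-7g-5p had 4734, 11123, 12181, 14276 and 13464 CPM. For each 1000 counts of let-7g-5p there were 0.141, 0.117, 0.173, 0.149 and 0.0975 counts of miR-3962. This ratio moved less than the level of either. Whether the counts of miR-3962 are reads of let-7g-5p was not tested.

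miR-3074-5p is the exact reverse complement of miR-24-3p, a miRNA of the miR-23/27/24 clusters that is abundant in heart and vessel, over 20 bases (capitals). Its precursors lie opposite those of miR-24, with mature copies at chr8:84208873-84208894 and chr13:63301249-63301270, both on the minus strand.
miR-3074-5p: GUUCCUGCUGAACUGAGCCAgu
miR-24-3p: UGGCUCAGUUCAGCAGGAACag

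miR-3074-5p had 33.8, 11.1, 10.9, 4.40 and 3.24 CPM from E10.5 to the adult (354, 128, 140, 56 and 42 counts). The adult was 10.4-fold lower than E10.5 (7.55 to 14.7); under median-ratio scaling the difference was -0.92 on the log2 scale, under 2-fold, and that of the neonatal heart against E17.5 was -0.94. miR-24-3p had 3219, 3309, 3558, 4274 and 5924 CPM, highest in the adult. For each 1000 counts of miR-24-3p there were 10.5, 3.36, 3.06, 1.03 and 0.547 of miR-3074-5p, so the opposite strands did not keep a constant ratio.

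miR-3473b and miR-3473e share 18 bases and the seed GGCUGGA, and miR-7667-5p holds a run of 12 bases of the reverse complement of miR-3473b, in capitals.
miR-3473b: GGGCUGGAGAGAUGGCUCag
miR-3473e: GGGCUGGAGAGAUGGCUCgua
miR-7667-5p: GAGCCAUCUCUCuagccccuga

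miR-5128, printed above, matches miR-3473b at 16 of 17 aligned bases. All 4 were highest at E10.5. miR-3473b had 40, 17, 7, 5 and 5 counts, miR-3473e 13, 7, 3, 5 and 3, and miR-7667-5p 27, 8, 8, 7 and 3. The 490 counts of miR-5128 at E10.5 were far above these.

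Apart from such copies the seeds were nearly all distinct. The 183 members with a sequence held 181 different seeds. Only 2 seeds were held by more than 1 member, that of miR-3473b and miR-3473e and that of miR-7679-3p and miR-8116. A seed was shared with a lower-numbered measured miRNA by 6 members: miR-1943-5p with miR-149-3p, miR-5129-3p with miR-455-5p, miR-6240 with miR-330-3p, miR-1983 with miR-412-3p, miR-3102-5p with miR-702-5p, and miR-6958-5p with the 3p arms of the miR-30c hairpins. None of the members with a position lay in the Dlk1-Dio3 domain of chromosome 12, the imprinted region that holds a large miRNA cluster.

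A hairpin can give a mature miRNA from each arm, and most members were the only arm of their hairpin to reach the minimum. Of 141 hairpins with both arms listed and at least 1 arm a member, 77 had only the 5p arm among the members, 43 only the 3p arm and 21 both. Over all 5 libraries the 5p arm held 99.9% of the counts of miR-6540, 99.8% of miR-1947, 99.6% of miR-1968, 99.5% of miR-3064, 97.2% of miR-3057 and 95.0% of miR-1943. miR-3099 was the reverse, with none of its 5791 counts on the 5p arm, and miR-3081 had 0.904% there. The weaker arms had few counts at each stage: 22, 6, 14, 6 and 15 for miR-3057-3p, 17, 1, 2, 0 and 0 for miR-3081-5p, and 19, 13, 11, 4 and 1 for miR-7070-3p. miR-5615-5p, the reverse complement of its own 3p arm over 20 bases, had 2, 2, 10, 9 and 2 counts.

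Some hairpins gave both arms in like amounts. miR-1933 had 53.3% of its counts on the 5p arm and miR-1934 had 53.4%. miR-3068-3p had 10.0, 7.72, 7.86, 7.54 and 6.72 CPM. For miR-3068 the 5p arm held 61.5% of the counts at E10.5 (Wilson 95% interval 55.6 to 67.1), 65.9% at E14.5 (60.0 to 71.4), 63.9% at E17.5 (58.2 to 69.3), 66.2% in the neonatal heart (60.5 to 71.5) and 75.4% in the adult heart (70.7 to 79.6). The adult interval lay above that of E10.5. For miR-1981 the 5p share was 93.4% at E10.5 (92.7 to 94.0), 92.9% at E14.5 (92.2 to 93.6), 92.7% at E17.5 (91.9 to 93.4), 91.1% in the neonatal heart (90.1 to 92.0) and 88.7% in the adult heart (86.5 to 90.6), with the adult interval below that of E10.5. A share of arms within 1 library does not depend on the scaling between libraries.

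Divided by number, the share of listed names that reached the minimum was highest in the first block. Of the 68 names from 1900 to below 2000, 32 (47.1%) were members. From 3000 to below 4000 there were 46 of 152 (30.3%), from 4000 to below 6000 there were 21 of 68 (30.9%), from 6000 to below 7000 there were 51 of 322 (15.8%), from 7000 to below 8000 there were 60 of 360 (16.7%), and from 8000 up there were 7 of 31 (22.6%). None of the 5 names from 2000 to below 3000 was a member.

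The summed level by block followed another order. The block from 1900 to below 2000 summed to 2172, 1141, 804, 572 and 187 CPM from E10.5 to the adult, and that from 7000 to below 8000 to 163, 84.0, 70.4, 56.2 and 23.1 CPM. The block from 8000 up, with 7 members, had the lowest sums of the blocks with members, at 27.5, 20.7, 18.8, 14.4 and 11.3 CPM. The block from 3000 to below 4000 summed to 5199, 3576, 4877, 3941 and 10079.6 CPM, most of it miR-3107-5p. In the adult against E10.5, 26 of 30 members compared in the block from 1900 to below 2000 were called lower and none higher, with a median of -1.82, beside 68.2% lower over all miRNAs. From 3000 to below 4000, 28 of 44 were lower and 4 higher (median -1.33). From 4000 to below 6000, 11 of 17 were lower and 1 higher (median -1.29). In the block from 6000 to below 7000, 33 of 48 were lower and 1 higher (median -1.36). In that from 7000 to below 8000, 37 of 54 were lower and 1 higher (median -1.15). From 8000 up, 3 of 6 were lower and none higher (median -1.02). Under median-ratio scaling, lower and higher members by block were 8 and 3, 7 and 8, and 3 and 4 up to below 6000. Above it they were 11 and 4, 7 and 4, and 0 and 2. Over all miRNAs 33.1% were lower and 25.0% higher on that scale. Of the 48 members without a count in the adult, 21 were in the block from 6000 to below 7000 and 19 in that from 7000 to below 8000.

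**Figure D5:**
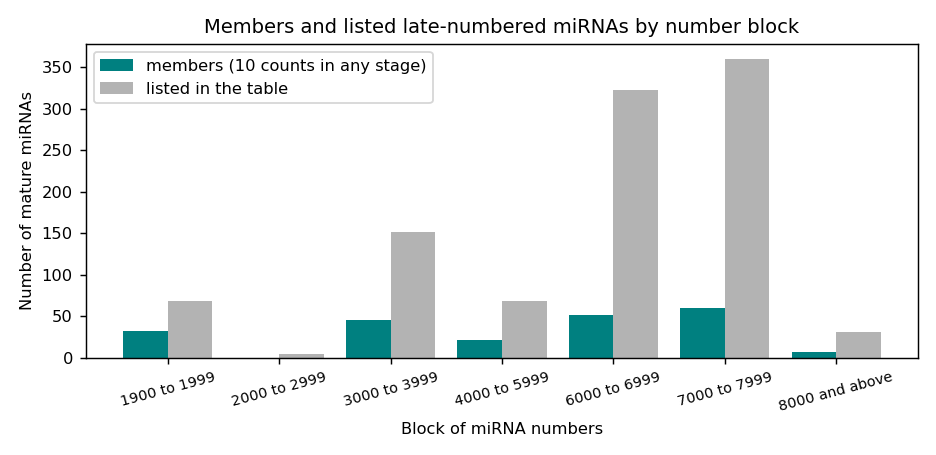
Number of mature miRNAs in each block of miRNA numbers, as bars for the members (at least 10 counts in any stage) and for all listed names. Of the names from 1900 to below 2000, 47.1% were members, against 15.8% and 16.7% in the blocks from 6000 and from 7000.

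In sequence and position the members differed from the other measured miRNAs in ways the choice did not use. Their median GC content was 55.0% (range 30.0 to 100), against 47.6% for the 489 others with a sequence, and their median share of G was 33.3%, against 23.8%. Median length was 22.0 bases in both sets. The first base was U in 88 of 183 members (48.1%), against 39.5% of the others. At the 3′ end, 32 members (17.5%) ended in AG, the letters of a 3′ splice site, against 31 of the others (6.34%). These are descriptions of the sets, with no test.

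Many members lay inside genes. A RefSeq gene interval on the same strand held 130 of the 183 placed members (71.0%), against 215 of 489 other miRNAs (44.0%). No gene held 19 members, against 221 of the others. Genes whose names begin with Mir or Gm and a number, begin with Mirlet, or end in Rik were left out of these counts. A miRNA inside such a gene only thus counts as in no gene. The part of this rule in the gap between the sets was not tested. Only an opposite-strand gene was found for 5 members, and for 29 the strand of the gene was not given. Hairpins that begin with GU and end with AG, as a mirtron that spans a whole intron would, made up 12 of the 153 member hairpins (7.84%), against 4 of 466 hairpins of lower number (0.858%). The match is of letters alone and does not show how these hairpins are made.

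The minimum of 10 counts cut through a dense part of the range. The highest count was 10 for 11 members and 11 for 13 members, while 14 listed names stood just outside with 9 and 19 with 8. Just inside were, for example, miR-3103-5p, miR-5100, miR-5615-5p and miR-7668-3p, and just outside miR-1943-3p, miR-1982-3p and miR-3109-3p (9 counts each) and miR-3070b-3p and miR-3085-3p (8 counts each). The minimum was reached in a single library by 59 members, 44 of them at E10.5. The 19 members that never reached 1 CPM could not be called by the 2-fold rule in CPM. The counts above in CPM thus describe the more abundant members.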

How the data were processed

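Small RNA libraries of hearts at 5 stages, 1 per stage, were used. Per the labels' protocols, RNA was extracted with Trizol, a gel fraction between 18 and 30 nt was taken, and the 3′ adapters carried unique molecular identifiers. Values in the deposited table are whole-number counts, 1 row per mature miRNA, although its name speaks of FPKM; the columns sum to 10479309, 11526413, 12848794, 12732634 and 12953867 from E10.5 to the adult. Per the submitters' processing notes the build was mm9 and HISAT, HISAT2, Bowtie, Bowtie2 and RSEM were used, without roles; the sources used here do not give whether molecules or reads were counted, or where reads matching several miRNAs went. Long RNA was not used here.

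From the counts, CPM was computed with the column total, and differences as log2(CPM + 1), which understates those of low members. Features with at least 10 counts in either stage were compared and called at a difference of 1 or more. Ratios carry exact Clopper-Pearson 95% intervals conditional on both counts, and shares of counts Wilson 95% intervals. Both cover counting error only. Replicates do not exist, so no test was run. Alternatives were a pseudocount of 0.1 or 5, no filter, a minimum of 100 counts, median-ratio scaling, leaving out the 10 most abundant miRNAs and, added after seeing the data, a mean of at least 20 counts and the E17.5 library in place of the neonatal library. Calls and intervals were tested on simulated data with counting error only, in which abundant miRNAs were changed by far more than 2-fold. That simulation does not cover changes near 2-fold or changes of members as scarce as most are here.

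Named were the 30 members with the highest level, the 5 largest differences each way per comparison among members with at least 100 counts, members resembling another miRNA in sequence, and hairpins with both arms listed and 100 counts on 1 arm. The members and lists were chosen with earlier results of these data known. Sequences and positions are from RefSeq (GRCm38.p6), matched by name; no coordinate was converted. Python 3.11.15, numpy 2.4.6, pandas 2.3.3, scipy 1.17.1 and matplotlib 3.10.9 were used.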

Additional observations from a re-analysis of the deposited data

How the results depend on the processing

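Counts of members higher and lower are given as in the report, in the order E14.5 against E10.5, E17.5 against E14.5, neonatal against E17.5, adult against neonatal, and adult against E10.5; with log2(CPM + 1) the pairs were 2 and 44, 2 and 7, 3 and 3, 4 and 31, and 7 and 138. With a pseudocount of 0.1 they were 7 and 91, 8 and 30, 12 and 22, 9 and 70, and 8 and 172. With a pseudocount of 5 they were 0 and 10, 0 and 2, 1 and 0, 2 and 13, and 3 and 34. A minimum of 100 counts leaves fewer members to compare (22 to 38) and gave 0 and 15, 0 and 2, 2 and 1, 2 and 12, and 3 and 31. Median-ratio scaling gave 5 and 3, 2 and 5, 5 and 2, 20 and 19, and 25 and 36. Leaving the 10 most abundant miRNAs out of the library total gave 4 and 14, 2 and 5, 5 and 3, 6 and 34, and 10 and 90. A mean of at least 20 counts, added after seeing the data, leaves 74 members and gave 1 and 17, 1 and 3, 3 and 1, 3 and 28, and 5 and 53. With the E17.5 library in place of the neonatal library, also added, 4 members were higher in the adult and 52 lower. No filter on low counts left all 10 counts as they were, which was fixed in advance. Fewer than 10 counts are under 1 CPM in every library, and such a member cannot reach a log2(CPM + 1) difference of 1.

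Under median-ratio scaling the adult difference from E10.5 turned positive for miR-1934-5p (0.07), miR-1947-5p (0.85), miR-1964-3p (0.66), miR-1981-3p (0.28), miR-3057-5p (0.65), miR-3064-5p (0.32) and miR-3535 (0.91). Of 81 differences past 2-fold among 45 named members, 74 kept their direction under that scaling and 37 stayed past 2-fold. Without the 10 most abundant miRNAs all 81 kept their direction and 63 stayed past 2-fold. A changed pseudocount cannot turn a direction, so it is no check of one. With a pseudocount of 5, 60 of the 81 stayed past 2-fold. Which scaling is closer to the amounts in the cells was not tested.

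No paired analysis was possible because each stage has 1 library, and no library can be left out of a stage. Depth limits most members: 162 of 217 peaked between 1 and 10 CPM, where a single library gives wide counting intervals, and a count of 0 allows up to 0.286 CPM in the E10.5 library.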
